A study of Mus musculus with 6 samples.

Results

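A set of 8 genes of vascular tone was followed in the brain after a peripheral inflammatory stimulus: the endothelin ligands Edn1 and Edn3, their receptors Ednra and Ednrb, the endothelin-converting enzyme Ece1, and the nitric oxide synthases Nos1, Nos2 and Nos3. They were taken from the table of array values by the gene name that the platform annotation gives each transcript cluster (the group of probes that together report on a transcribed region). Of the 8 genes, 7 had a cluster that names them alone, out of 19938 genes so named and 35556 clusters in all. Ednra had none in the annotation used here and was not analysed here. Each of the 7 genes was represented by 1 cluster.

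The treated mice were male C57BL/6 animals of 7 to 8 weeks that received LPS of Escherichia coli serotype 055:B5 intraperitoneally at 4 mg/kg (3 mice). The controls were males of the same strain and age that received PBS as the vehicle (3 mice). All mice were killed 48 h later and perfused with PBS, and RNA of the whole brain was hybridized to Affymetrix Mouse Gene 1.0 ST arrays, each mouse on its own array. The comparison asked which transcripts differ in the brain after LPS has acted in the periphery. LPS, the outer membrane lipid of Gram-negative bacteria, is a ligand of Toll-like receptor 4.

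Endothelins are small peptides that are cut from larger precursors, first by furin-type proteases and then by endothelin-converting enzymes. Endothelin 1 comes mainly from endothelial cells and constricts vessels through the endothelin A receptor on smooth muscle, whereas the B receptor, which astrocytes and endothelial cells carry in the brain, clears the peptide and in endothelium drives nitric oxide release. Nitric oxide is made from arginine by neuronal (Nos1), inducible (Nos2) and endothelial (Nos3) synthases and relaxes smooth muscle through soluble guanylate cyclase and cGMP.

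Values are log2 expression after robust multichip average (RMA) normalization. They are relative within a cluster, so levels of different genes are not compared. Differences are LPS minus PBS and were tested with limma over all 35556 clusters, and a gene was called when its Benjamini-Hochberg adjusted p was under 0.05. By this rule 232 clusters were higher in LPS brains (0.652% of those tested) and 22 were lower (0.0619%). In 3460 clusters (9.73%) all LPS arrays lay above all PBS arrays, and in 10.3% all lay below. At an unadjusted p under 0.05 from limma, 2733 of the 35556 clusters were higher and 2341 were lower. Unadjusted counts of the gene lists below are to be read beside these. As a guide to background, 1210 clusters of olfactory and vomeronasal receptors, which whole brain hardly transcribes, had medians of 5.67 to 5.81 and 95th percentiles of 6.46 to 6.64 on the 6 arrays. The first principal component (54.5% of the variance) set LPS replicates 1 and 2 off against the remaining 4 arrays, with array medians of 7.09 and 7.11, against 6.96 in LPS replicate 3 and 6.95 to 6.98 in the PBS arrays. Tbp, the reference gene of the study's qPCR, had a level of 10.45 ± 0.17 in LPS brains and 10.46 ± 0.09 in PBS brains (SD, n = 3 each). The labels call the mice of a group biological replicates, and with 3 arrays a group the precision was limited by their number. In whole brain RNA, more or fewer cells of a type and more or less RNA per cell cannot be told apart.

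One of the 7 measured genes, Edn1, was called higher in LPS brains, where 0.652% of all clusters were, and none was called lower (0.0619% of all clusters). In 2 of the 7, Edn1 and Nos3, all LPS arrays lay above all PBS arrays, as in 9.73% of all clusters, and Nos3 did not pass the test. The intervals of Edn3, Ece1, Ednrb and Nos1 included 0 with bounds of at most 0.31 on the log2 scale in either direction, and Nos2 was not above the receptor background.

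The promoters of the ligands are shown because one ligand was called and the other was not. The sequences are those of RefSeq on GRCm38.p6, on the plus strand, written 5′ to 3′ in lower case. Capitals mark matches to the motifs searched. The first run is the 250 bases before the annotated start of Edn1 at chr13:42301226-42301475, the second is a stretch of 26 bases just after that start at chr13:42301479-42301504, and the last is the 250 bases before the start of Edn3 at chr2:174760369-174760618.
Edn1, before the start: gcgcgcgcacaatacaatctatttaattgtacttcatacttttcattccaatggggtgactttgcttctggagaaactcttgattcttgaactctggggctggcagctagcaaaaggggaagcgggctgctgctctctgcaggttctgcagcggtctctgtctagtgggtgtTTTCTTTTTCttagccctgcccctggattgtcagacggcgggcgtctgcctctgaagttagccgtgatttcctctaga
Edn1, after the start: gggtcTTATCTctggctgCACGTtgc
Edn3, before the start: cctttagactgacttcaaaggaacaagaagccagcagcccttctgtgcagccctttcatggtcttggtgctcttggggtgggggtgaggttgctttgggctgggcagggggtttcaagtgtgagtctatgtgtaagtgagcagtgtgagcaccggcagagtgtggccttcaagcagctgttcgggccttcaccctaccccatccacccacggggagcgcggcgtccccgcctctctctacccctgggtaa

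The search covered both strands of windows that run from 250 bases before to 50 bases after each start. There were 32851 windows of 27025 genes, of which 9 windows belong to 6 of the 8 genes. Nos2 and Nos3 had no window in the promoter set used, so their promoters were not searched. The capitals before the start of Edn1 match the core of interferon-stimulated response elements (GAAA, any 2 bases and GAAA again, here on the minus strand) at -78 to -69 from the start. This core stood in 3.44% of all windows, and among the 6 genes searched also in a window of Ece1. After the start of Edn1 the first capitals, at 9 to 14, match AGATAA on the minus strand, which GATA factors bind (11.2% of windows). The next, at 22 to 26, match the core of hypoxia response elements, ACGTG, also on the minus strand (19.6% of windows). The hypoxia core was also present in a window of Ece1. TGACTAA, an AP-1-like site that was searched after the Edn1 sequence had been seen, stood at 37 to 43 of Edn1, outside the stretches shown, and in 2.35% of windows. The AP-1 site TGANTCA (7.81% of windows) and the TATA box letters TATAAA (13.6%) were found in none of the 9 windows. Sequence outside the windows was not searched, so an element further from an annotated start would be missed. Positions are counted from the annotated start, and where transcription starts in these brains was not measured. The absence of TATAAA therefore holds for the windows and not for a promoter at another start. Among the 9 windows, the NF-kappa-B site (4.51% of all windows) was found only in a window of Nos1. A match describes the letters of the window and says nothing of whether a factor binds there.

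Edn1 encodes the precursor of endothelin 1 and lies at chr13:42301476-42307990 (GRCm38.p6). Its log2 expression was 7.02, 7.01 and 7.17 in LPS brains, against 6.21, 6.30 and 6.28 in PBS brains. The groups did not overlap, and the lowest LPS array lay 0.71 above the highest PBS array. The 3 LPS values were above the 95th percentile of the receptor clusters on their own array, whereas the 3 PBS values lay between the median and that percentile. The means were 7.07 ± 0.09 in LPS brains and 6.26 ± 0.05 in PBS brains (SD, n = 3 each), a log2 fold change of 0.80 (SE 0.08, 95% CI 0.61 to 0.99) or 1.75-fold (adjusted p = 0.00934 from limma). The direction was the same whichever array was left out, with log2 fold changes of 0.75 to 0.83. The call ended without PBS replicate 1, 2 or 3 (adjusted p = 0.0738, 0.0636 and 0.0686 from limma) and without LPS replicate 1 (0.0515), and with arrays centred on their medians (log2 fold change 0.71, adjusted p = 0.0527) or with LPS replicates 1 and 2 both left out (0.90, adjusted p = 0.0743).

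**Figure D1:**
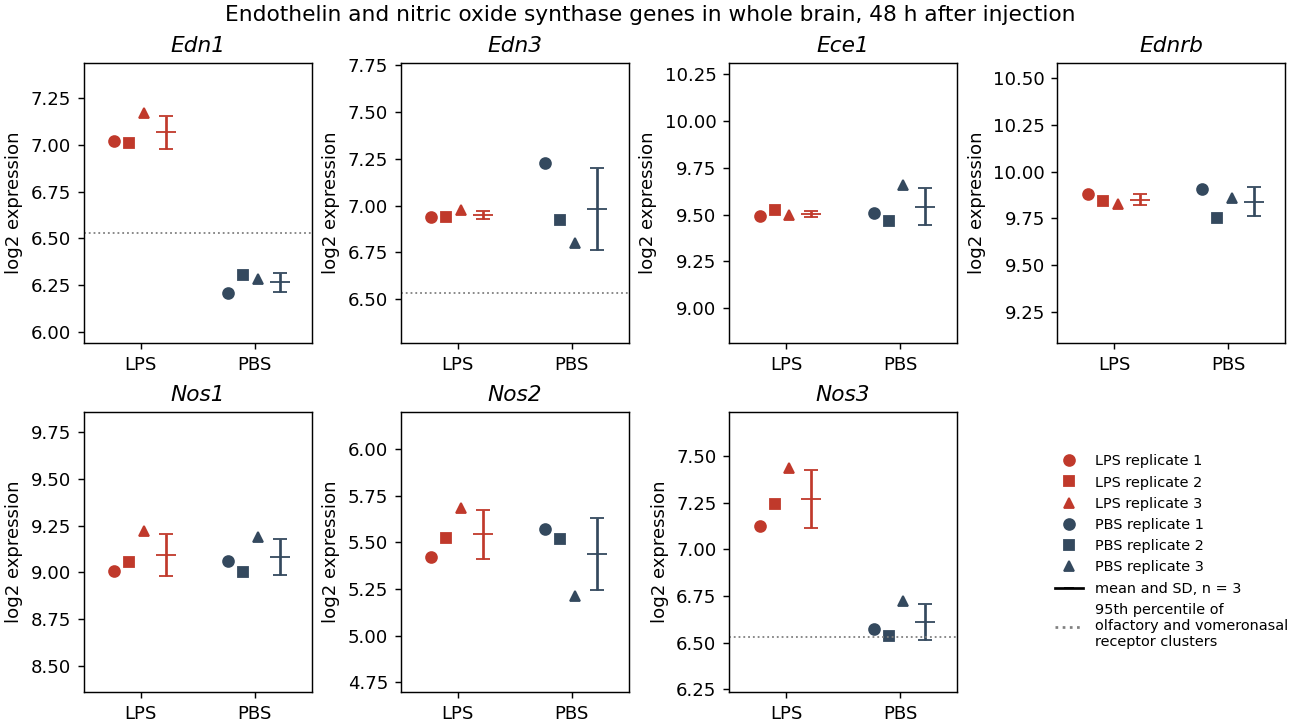
Log2 expression (y axis) of the 7 measured genes in the 3 LPS and 3 PBS arrays, with mean and SD beside the points and every panel spanning the same log2 range. The dotted line is the mean 95th percentile of the olfactory and vomeronasal receptor clusters (6.53), and the groups stand apart for Edn1 and Nos3 only.

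Edn3, on chromosome 2, encodes endothelin 3, which favours the B receptor and is best known for its part in neural crest development. Its level was 6.94, 6.94 and 6.98 in LPS brains, against 7.22, 6.92 and 6.80 in PBS brains. The LPS arrays fell inside the range of the PBS arrays, which were more spread (SD 0.02 in LPS brains and 0.22 in PBS brains). The log2 fold change was -0.03 (95% CI -0.31 to 0.25, adjusted p = 0.928 from limma). PBS replicate 1, the highest array, set the sign, since the value without it was 0.09. The 2 ligands therefore differed in their calls, but the difference between their changes was not tested.

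Ece1, on chromosome 4, encodes the membrane protease that releases active endothelin from big endothelin. It had levels of 9.49, 9.52 and 9.50 in LPS brains, against 9.51, 9.47 and 9.66 in PBS brains. All 3 LPS arrays lay within the PBS range. The log2 fold change was -0.04 (95% CI -0.23 to 0.15, adjusted p = 0.860 from limma). On the linear scale this interval ran from -14.6% to 11.2%.

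Of the 12 genes listed for endothelin ligands and processing, all 12 were measured. Edn1 was the only one called, none was lower, and the median log2 fold change was -0.01, against -0.02 over all named genes.

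Ednrb, on chromosome 14, encodes the endothelin B receptor. Its level was 9.88, 9.84 and 9.82 in LPS brains, against 9.91, 9.75 and 9.86 in PBS brains. The LPS arrays lay inside the PBS range. The log2 fold change was 0.01 (95% CI -0.17 to 0.19, adjusted p = 0.970 from limma). All 6 arrays were above the 95th percentile of the receptor clusters, so the interval comes from a measured signal.

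A list of 19 genes held the 2 endothelin receptors and genes downstream of them, among them G proteins, phospholipases and arrestins. Of these 15 were measured, Ednrb included, and none passed in either direction. The median of 0.01 was the value of Ednrb itself. At an unadjusted p under 0.05, 1 was higher and none was lower.

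**Figure D2:**
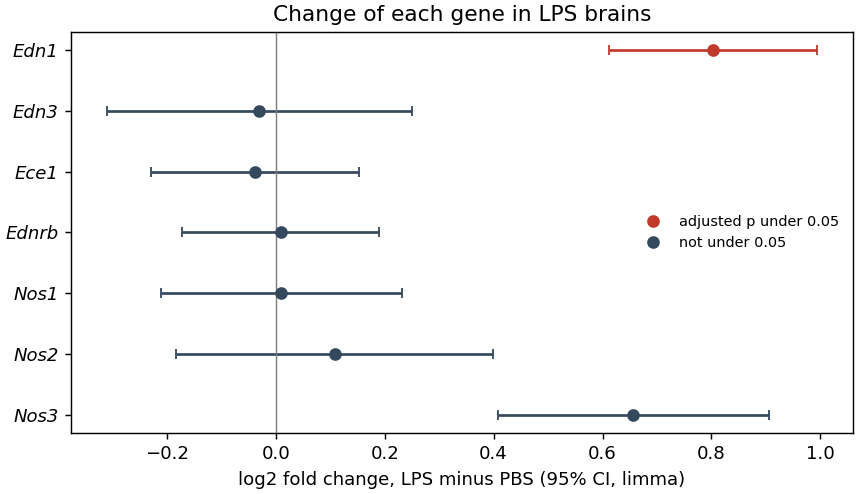
Log2 fold change, LPS minus PBS (x axis), of the 7 measured genes with 95% confidence intervals from limma. Edn1 (0.80) and Nos3 (0.66) lie to the right of 0, and the intervals of the other 5 genes include 0.

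Nos1, on chromosome 5, encodes the neuronal synthase. Its level was 9.01, 9.05 and 9.22 in LPS brains, against 9.06, 9.0002 and 9.19 in PBS brains. The groups covered nearly the same range. The log2 fold change was 0.01 (95% CI -0.21 to 0.23, adjusted p = 0.972 from limma). Of 5 genes that mark the cortical interneurons richest in this synthase, Sst, which encodes somatostatin, was called lower at 11.39 ± 0.07 in LPS brains and 11.98 ± 0.09 in PBS brains (SD, n = 3 each; log2 fold change -0.59, adjusted p = 0.0350 from limma). None was called higher, but 1 of the 5 had a positive log2 fold change (0.35). At an unadjusted p under 0.05 from limma, 3 were lower and none was higher, and 4 of the 5 were above the receptor background. The median of the 5 was -0.51. It was -0.11 with LPS replicates 1 and 2 both left out, the arrays that stood off on the first principal component. The call of Sst ended when any array other than LPS replicate 3 was left out (adjusted p = 0.103 to 0.188 from limma). Of 10 general neuron markers none passed in either direction (median -0.01), with Syp, the synaptophysin gene, at -0.20 (limma, adjusted p = 0.357) and Snap25, a gene of synaptic vesicle fusion, at 0.14 (adjusted p = 0.436).

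Nos2, on chromosome 11, encodes the synthase that macrophages and glia make after endotoxin and cytokines. Its level was 5.42, 5.53 and 5.68 in LPS brains, against 5.57, 5.52 and 5.21 in PBS brains. The groups overlapped, and only 1 of the 6 arrays exceeded the median of the receptor clusters on that array. None exceeded their 95th percentile. The log2 fold change was 0.11 (95% CI -0.18 to 0.40, adjusted p = 0.718 from limma), and at this signal it does not show whether Nos2 changed at 48 h. Among 9 measured markers of microglia and macrophages, Itgam, which encodes a complement receptor subunit, was called higher (log2 fold change 1.77, adjusted p = 0.00317 from limma). None was called lower, and the median was 0.30. At an unadjusted p under 0.05 from limma, 5 of the 9 were higher and none was lower.

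Nos3, at chr5:24364816-24384474 (GRCm38.p6), encodes the endothelial synthase. Its level was 7.13, 7.24 and 7.43 in LPS brains, against 6.58, 6.54 and 6.72 in PBS brains. The groups did not overlap, with a gap of 0.40. The means were 7.27 ± 0.16 in LPS brains and 6.61 ± 0.10 in PBS brains (SD, n = 3 each), a log2 fold change of 0.66 (SE 0.10, 95% CI 0.41 to 0.91) or 1.58-fold. The adjusted p was 0.0585 from limma, so Nos3 was not called. It passed without LPS replicate 3, the highest array (log2 fold change 0.57, adjusted p = 0.0183), and when only clusters that name 1 gene were tested (adjusted p = 0.0157), and leaving out another array gave up to 0.262.

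Partners of the synthases showed 1 call. Of 17 listed genes 14 were measured, Cav1 was higher, none was lower, and the median was -0.12 (0.002 with LPS replicates 1 and 2 both left out). Cav1 encodes caveolin 1, the scaffold of caveolae that binds the endothelial synthase and holds it inactive. Its level was 8.68, 9.19 and 9.15 in LPS brains, against 7.75, 7.59 and 7.69 in PBS brains. The groups were well apart, with LPS replicate 1 the lowest of its group. The log2 fold change was 1.33 (SE 0.14, 95% CI 0.99 to 1.68) or 2.52-fold (adjusted p = 0.0140 from limma). The call ended without PBS replicate 1, 2 or 3 (adjusted p = 0.0754, 0.0950 and 0.0887 from limma) or LPS replicate 2 (0.0572).

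Genes that supply the synthases with arginine and with the cofactor tetrahydrobiopterin gave no call. Of 14 listed genes 12 were measured, and the median was -0.18, or -0.0206 with LPS replicates 1 and 2 both left out. At an unadjusted p under 0.05, 4 were lower and none was higher. Qdpr, the reductase that recycles the cofactor, had 10.38 ± 0.13 in LPS brains and 10.79 ± 0.02 in PBS brains (SD, n = 3 each; log2 fold change -0.41, adjusted p = 0.136 from limma). Pts, an enzyme of its synthesis, had a log2 change of -0.35 (limma, adjusted p = 0.303).

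The arm that reads nitric oxide was measured in full, with 18 of 18 genes of soluble guanylate cyclase, cGMP-dependent kinases, phosphodiesterases and targets. None passed in either direction, and the median was -0.01. Unadjusted, 1 was higher and 2 were lower. Adh5, the enzyme that breaks down S-nitrosoglutathione, had 9.22 ± 0.34 in LPS brains and 9.80 ± 0.05 in PBS brains (SD, n = 3 each; log2 fold change -0.58, adjusted p = 0.229 from limma). Cnga2, a cyclic nucleotide-gated channel gene, had the smallest p of this list (log2 fold change 0.32, adjusted p = 0.216 from limma) at a level below the receptor 95th percentile.

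**Figure D3:**
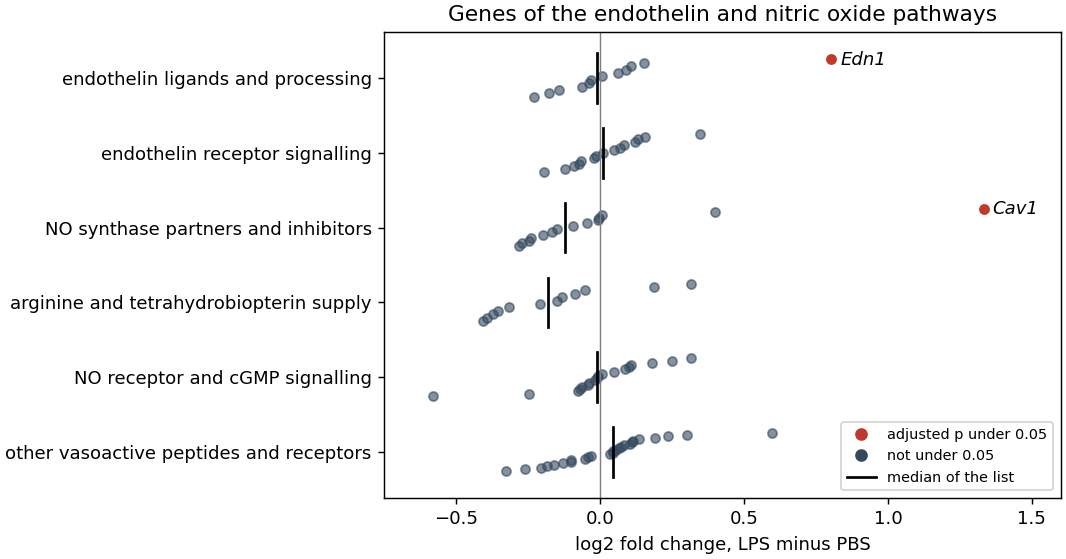
Log2 fold change, LPS minus PBS (x axis), of each measured gene in 6 lists of vasoregulatory genes, with each list's median as a bar. Edn1 (0.80) and Cav1 (1.33) are the called genes, and the medians lie between -0.18 and 0.04.

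Edn1, Nos3 and Cav1 are all genes that endothelial cells express, so markers of these cells are given beside them. Of 20 listed brain endothelial markers 19 were measured, and 9 were called higher, where 0.652% of all clusters were. None was called lower, 10 did not pass, and the median log2 fold change was 0.66. The list was chosen with earlier results of these data known. It also shares genes, such as Vwf, with the study's own list of changed genes from these arrays, so its count of calls is a description. Their mean level was 8.67 to 8.76 in LPS brains and 7.97 to 8.15 in PBS brains, and 17 of the 19 were above the receptor background. The 6 with the smallest p were Vwf (1.17), Emcn (1.08), Cldn5 (0.98), Tek (1.04), Cdh5 (0.85) and Kdr (0.94). Vwf encodes von Willebrand factor, Cldn5 the tight junction protein claudin 5, Cdh5 VE-cadherin and Kdr a VEGF receptor. Of these 6, Kdr was not above the receptor background over the 6 arrays (PBS mean 5.94). Mfsd2a, a lipid transporter of the blood-brain barrier that was picked out after its value was seen, had a log2 change of -0.71 (limma, adjusted p = 0.0784). The count of calls in this list was 5, 5 and 6 without PBS replicate 1, 2 and 3, 6 and 7 without LPS replicate 1 and 2, and 12 without LPS replicate 3, and it was 2 with LPS replicates 1 and 2 both left out.

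Relative to the mean of the endothelial markers on the same array, Edn1 stood at -1.65, -1.67 and -1.59 in LPS brains, against -1.86, -1.67 and -1.87 in PBS brains. The groups met at LPS replicate 2 and PBS replicate 2. The difference was 0.16 on the log2 scale (exact two-sided permutation p = 0.2, where 0.1 is the smallest that 3 against 3 arrays allow). For Nos3 the same difference was 0.01 (exact two-sided permutation p = 1). A test of this size cannot pass 0.05, so these differences stand as values. Nos3 moved by nearly the same amount as the marker mean, and Edn1 by slightly more, with overlapping groups. This depends on the list. Edn1 (0.80) lay below each of the 6 markers named above (0.85 to 1.17), whereas other markers, among them Mfsd2a (-0.71), lay below Edn1. The PBS values of Edn1 were also under the receptor 95th percentile. Cav1, which was not set against the markers array by array, had a log2 fold change of 1.33. The mean level of the marker list was higher by 0.64 in LPS brains.

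**Figure D4:**
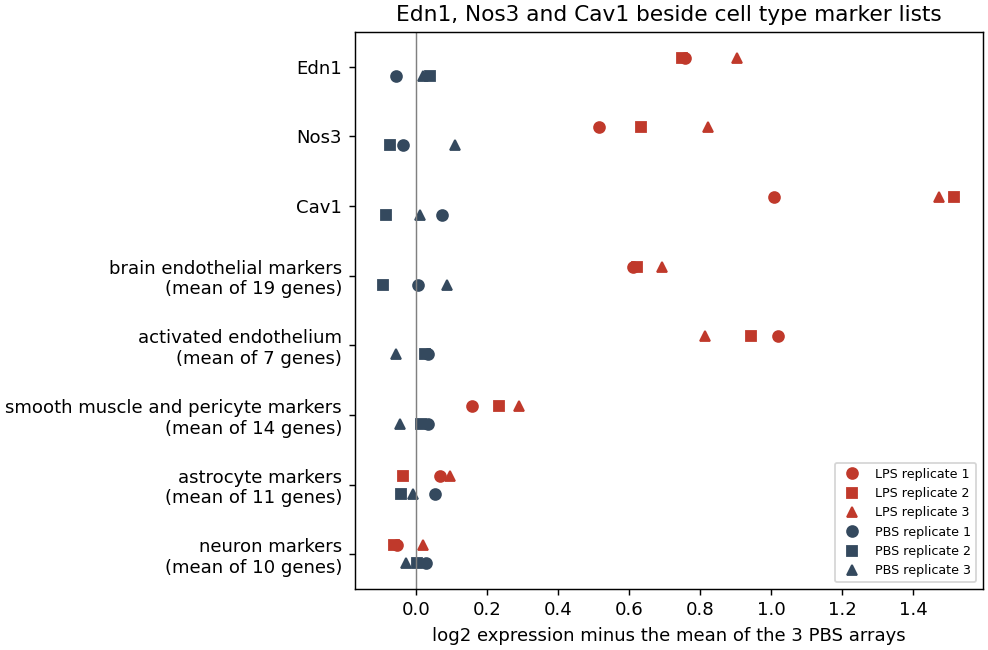
Log2 expression of Edn1, Nos3, Cav1 and the mean of 5 marker lists in each array, minus the mean of the 3 PBS arrays (x axis). The LPS arrays of the 3 genes and of both endothelial lists lie above all PBS arrays, as do those of smooth muscle and pericyte markers, whereas astrocyte and neuron lists overlap.

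Other marker lists bear on cells that make or sense these signals. Of 7 measured genes of activated endothelium, 4 were called higher and none lower (median 0.84): Vcam1 (1.42) and Icam1 (0.84), which encode adhesion molecules, Ch25h (0.94), which encodes cholesterol 25-hydroxylase, and Cd93 (2.60), which myeloid cells also express. The count was 2 without PBS replicate 1 or 2, 3 to 5 without another array, and 0 with LPS replicates 1 and 2 both left out. Of 14 smooth muscle and pericyte markers, the cells on which endothelin acts, none passed. Their median was 0.26, and 6 were higher and none was lower at an unadjusted p under 0.05, with Pdgfrb at 0.38 (adjusted p = 0.138 from limma) and Abcc9 at 0.48 (adjusted p = 0.161). Of 11 astrocyte markers none passed (median 0.04), with Gfap at 0.56 (adjusted p = 0.130 from limma) and Fgfr3 at -0.31 (adjusted p = 0.236). None of 6 measured oligodendrocyte markers passed (median -0.12), with Mog at -0.25 (limma, adjusted p = 0.297) and Mobp at -0.30 (adjusted p = 0.323). Of 10 neutrophil markers, all with means below the receptor 95th percentile over the 6 arrays, Csf3r was called higher (0.73, adjusted p = 0.0188 from limma), and this list had 0 calls when any array other than LPS replicate 3 was left out. Neither of the 2 measured erythrocyte markers passed, with Alas2 at -0.25 (limma, adjusted p = 0.249) and Slc4a1 at -0.03 (adjusted p = 0.917). The part of these cell types in the values of Edn1, Nos3 and Cav1 was not tested.

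The named genes whose pattern over the 6 arrays was most like that of each measured gene other than Nos2, which was not above background, were found by Pearson's r among 12366 genes with a mean above the receptor 95th percentile. Since r over 6 arrays in 2 groups follows any difference between the groups, it is given as a description. For Edn1 these were Ifi30 (0.999), Abi3 (0.999), Pbrm1 (0.998), Ifit1 (0.997) and Parp14 (0.997), of which Ifi30, Abi3, Ifit1 and Parp14 were themselves called higher, with log2 fold changes of 1.86, 0.63, 1.69 and 1.02. For Nos3 they were Trim25 (0.996), Fam13b (0.993) and Smarca2 (0.993), of which Trim25 was called higher (1.01). For Ednrb they were Sypl (0.993), Ngdn (0.982) and Lrrc1 (0.963), and for Ece1 they were Pkp2 (0.993), B4galt7 (0.987) and Arrb1 (0.980). For Nos1 they were Meis2 (0.994), Eola1 (0.989) and Chpt1 (0.988), and for Edn3 they were 4921507P07Rik (0.978), Adcy8 (0.976) and Sptlc1 (0.971). None of the genes most like Ednrb, Ece1, Nos1 and Edn3 was called.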

How the data were processed

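The values were the log2 expression values deposited by the authors for 6 arrays, made by RMA. The study's methods name RMA adjusted for GC content in Partek and RMA 16 in GeneSpring, without saying which was deposited. Fold changes recomputed here matched the study's Partek gene list and not its GeneSpring list for the genes checked by hand, so the Partek values are the likely source. No further normalization or filter was applied. Gene names came from the annotation of the platform, with symbols matched through Entrez identifiers (21698 of 21789 clusters that name 1 gene), 1621 clusters that name several genes and 12146 unnamed here were tested but given no gene's name, and 1 list symbol was found under an older name. The cluster with the highest mean stood for a gene. LPS and PBS arrays were compared in two-sided tests with limma 3.58.1 (lmFit, eBayes; R 4.3.3). P values were adjusted by Benjamini-Hochberg over all 35556 clusters, and the threshold was an adjusted p of 0.05. The procedure was tested on simulated data. The background level of each array was the median and 95th percentile of clusters that name 1 olfactory or vomeronasal receptor. Promoters and positions are RefSeq's on GRCm38.p6.

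The 8 genes and the gene lists were chosen with earlier results of these data known. The text names the 8 genes, Tbp, in each list the called genes up to 6 by smallest p or else those 2 with the smallest p, and the 5 genes most like a called gene or 3 most like another. The genes this rule gives for the list downstream of the endothelin receptors are not reported here. Of the lists, that of other vasoactive peptides is described in the closing section. Alternatives were the methods' t-test (unpaired, equal variances), eBayes with trend and robust, array weights, quantile normalization, median centring, a filter that removed the dimmest 40% of clusters, a replicate block, a test of single-gene clusters alone, an offset of 32 on the linear scale, the mean of a gene's clusters, adjusted thresholds of 0.1 and 0.01, each array left out in turn, and LPS replicates 1 and 2 both left out.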

Additional observations from a re-analysis of the deposited data

How the results depend on the processing

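Under other settings the counts of clusters called higher and lower were 4 and 1 with the methods' t-test, 4751 and 3572 with array weights, 141 and 10 with median centring, 71 and 12 with LPS replicates 1 and 2 both left out (where the spread of the lone LPS array is taken from the PBS group), 356 and 64 at an adjusted p under 0.1, and 97 and 0 at 0.01. Quantile normalization gave 13 lower clusters and testing clusters that name 1 gene gave 61. Leaving out 1 array gave 74 to 2640 higher and 0 to 1152 lower clusters, the highest counts being those without LPS replicate 3. Without adjustment, 2733 clusters were higher and 2341 lower at a p under 0.05. Of the 7 measured genes, 0 were called with the methods' t-test, median centring or both LPS replicates left out, 2 (Edn1 and Nos3) with array weights, with clusters that name 1 gene and at 0.1, and 0 to 2 with 1 array left out. Edn1 kept its direction under every alternative (0.61 with an offset of 32 to 0.90): its call ended with the methods' t-test (0.80, adjusted p = 0.0710), median centring (0.71), LPS replicates 1 and 2 both left out (0.90, adjusted p = 0.0743 from limma) and 4 of 6 arrays left out in turn (0.75 to 0.83 over all 6). Nos3 passed with array weights (0.53), and at 0.1 or among clusters that name 1 gene (0.66), and ranged from 0.57 to 0.73 with 1 array left out. Median centring moved the median of all clusters by -0.09, and under it Ednrb was at -0.0819 and Nos1 at -0.0805. The sign also turned with array weights for Nos1 (-0.0643) and Nos2 (-0.0182) and with both LPS replicates left out for Ednrb (-0.0153). With 1 array left out the log2 fold changes were -0.12 to 0.0913 for Edn3, -0.0337 to 0.0431 for Ednrb, -0.0762 to 0.0194 for Ece1, -0.0526 to 0.0639 for Nos1 and -0.0017 to 0.18 for Nos2. Nos2 was among the clusters removed with the lowest 40%. The cause of these changes was not tested. The lists of brain endothelial markers and activated endothelium had 0 calls with the methods' t-test, and the first had 2 with LPS replicates 1 and 2 both left out.

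With the replicate number as a block (replicate block), 76 clusters were higher and 4 lower, and 0 of the 7 genes were called (Edn1 0.80, adjusted p = 0.0719 from limma). The deviations of same-numbered arrays correlated at 0.087, -0.054 and 0.0997, and not every array correlated best with its own number, so the numbers were not taken as pairs.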

Other observations

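Other vasoactive systems were described from a list of 27 genes of adrenomedullin, calcitonin gene-related peptide, angiotensin, natriuretic peptide, bradykinin, apelin and related signals, of which 26 were measured. None passed the limma test in either direction, at an unadjusted p under 0.05 1 was higher and 1 was lower, and the median log2 fold change was 0.04. Calcrl, the receptor that adrenomedullin and calcitonin gene-related peptide share and that endothelial cells carry, had a level of 8.87 ± 0.26 in LPS brains and 8.27 ± 0.02 in PBS brains (SD, n = 3 each), a log2 change of 0.60 (limma, adjusted p = 0.144) with the groups apart. Ramp2, the partner that makes this receptor respond to adrenomedullin, had 7.92 ± 0.17 in LPS brains and 8.18 ± 0.05 in PBS brains (SD, n = 3 each). Its log2 change was -0.26 (limma, adjusted p = 0.330), again with the groups apart. Over all clusters, all LPS arrays lay above all PBS arrays in 9.73% and below them in 10.3%.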
